A study of Mus musculus with 6 samples.

Results

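Cholesterol and fatty acid synthesis were followed through 32 genes that sterol regulatory element-binding proteins (SREBPs) are known to control, or that control the SREBPs. The genes were taken by symbol from a list, 22 of them in a sterol branch and 10 in a fatty acid branch. All 32 were found among the 55401 genes of the count table, and all 32 were among the 15959 genes that passed the filter on low counts. RNA was measured in bone marrow-derived macrophages of C57BL/6 mice, primary cells grown from marrow, as 6 libraries in all. In 3 libraries (siPiezo1) the cells had received an siRNA against Piezo1, a mechanically gated cation channel, and in 3 (siNC) a negative-control siRNA. Cells of both groups were stretched for 4 h, and unstretched cells were not analysed here. The study asked how Piezo1 drives macrophage proliferation under stretch. Nothing in the labels says that replicates were separate animals or cultures, so the p-values speak only of the scatter among these 6 libraries, and that scatter may be technical.

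SREBPs are transcription factors held in the membrane of the endoplasmic reticulum. When membrane sterol is low, the escort protein SCAP carries them to the Golgi, where proteases release the part that enters the nucleus, and INSIG proteins hold the complex back when sterol is plentiful. SREBP2, from Srebf2, mainly drives cholesterol synthesis and uptake, and SREBP1, from Srebf1, mainly drives fatty acid synthesis. In macrophages the pathway sets membrane cholesterol and supplies oxysterols, the ligands of liver X receptors.

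The libraries held 61086684 to 75052745 estimated counts. Piezo1 itself stood at 111, 109 and 113 CPM (counts scaled to one library size) in siPiezo1, against 180, 285 and 189 CPM in siNC replicates 1, 2 and 3, which put the siPiezo1 mean at 51.0% of the siNC mean. The 9 macrophage markers summed to 34507 to 37312 CPM in siPiezo1 and to 28167 to 35354 CPM in siNC, mostly from Lyz2. Of the 8 markers of T, B and NK cells, 4, among them Cd3e and Cd3g, were at 0 in every library, and the list summed to 4.93, 5.43 and 1.88 CPM in siPiezo1, against 16.7, 2.04 and 13.3 CPM in siNC, nearly all from Cd4. The library siNC 2 stood apart. Its 11 neutrophil markers summed to 4027 CPM, against 743 and 800 CPM in siNC 1 and 3 and 774 to 893 CPM in siPiezo1, although Ly6g and Retnlg were under 1 CPM in every library. Its 8 inflammatory genes summed to 2011 CPM, against 191 and 197 CPM in siNC 1 and 3 and 240 to 305 CPM in siPiezo1. Results are therefore given with and without siNC 2. In bulk RNA, fewer cells of a type and less RNA per cell cannot be told apart.

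Sterol genes stood lower in siPiezo1 than in siNC 1 and 3 almost throughout the branch. In the summed CPM of the branch siNC 2 lay with the siPiezo1 libraries, though not for every gene. The 22 sterol genes summed to 948, 901 and 816 CPM in siPiezo1, against 1271, 885 and 1278 CPM in siNC 1, 2 and 3. With all 6 libraries the log2 fold change (siPiezo1 over siNC) was below 0 for 21 of the 22 and its median was -0.31, while 52.0% of all tested genes were below 0 and their median was -0.01. Without siNC 2 the count was 22 of 22 and the median -0.41, against 49.5% of all tested genes. Over the other libraries left out in turn the median ran from -0.18, without siNC 3, to -0.32. With all 6 libraries no sterol gene passed an adjusted p of 0.05 by edgeR (adjusted p 0.81 to 0.999), where 0.00627% of tested genes were called lower, and DESeq2 called 1 sterol gene. At an unadjusted p under 0.05, 9 of the 22 were lower and 0 higher, against 2.41% and 2.52% of all tested genes. Without siNC 2 those counts were 16 and 0, against 6.71% and 7.54%.

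The 10 fatty acid genes summed to 730, 610 and 748 CPM in siPiezo1, against 669, 660 and 841 CPM in siNC, and these ranges overlapped. Scd2, which varied widely within both groups, sets that overlap. Without it, a split made after the values were seen, the other 9 genes summed to 575, 561 and 564 CPM in siPiezo1, against 625, 593 and 657 CPM in siNC, with no overlap. Of the 10, 8 had a log2 fold change below 0, but the median was -0.07 with all 6 libraries and -0.15 without siNC 2. At an unadjusted p under 0.05, 1 of the 10 was lower (Fasn) and 0 higher, and 0 passed the adjusted test (edgeR adjusted p 0.857 to 0.995). The shares over all tested genes were 2.41% lower and 2.52% higher at that unadjusted p. Without siNC 2, 2 of the 10 were lower (Fasn and Fads1) and 0 higher, against 6.71% and 7.54%. The plot of the branches by library shows where each library lay.

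**Figure D1:**
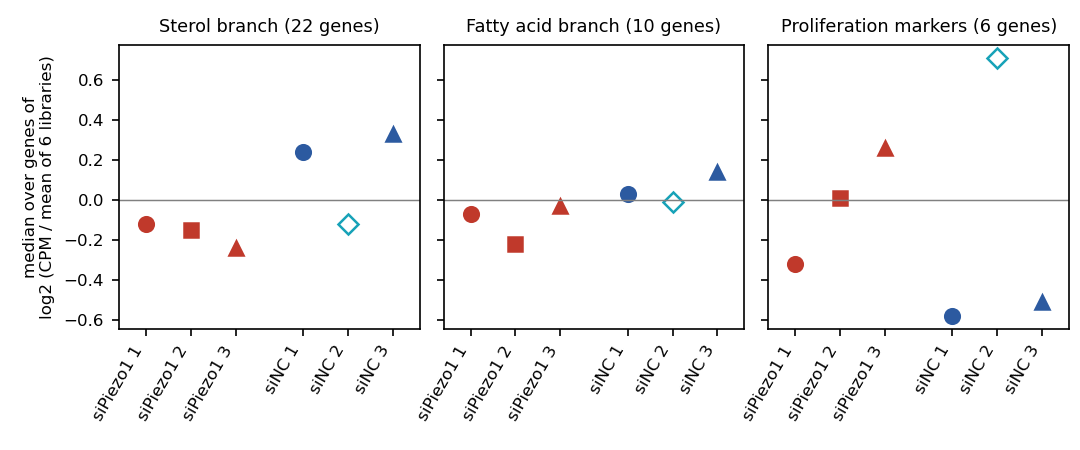
Each point is 1 library, siPiezo1 on the left and siNC on the right of each panel, and the y axis is the median over the genes named above the panel of log2 (CPM divided by the mean of the 6 libraries). In the sterol branch siNC 2 (open diamond, -0.12) sits level with the siPiezo1 libraries (-0.12, -0.15 and -0.24) and below siNC 1 and 3 (0.24 and 0.33), and in the proliferation markers it sits highest (0.71).

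The place of siNC 2 was looked at gene by gene. It was the lowest of the 3 siNC libraries for 19 of the 22 sterol genes, and for 5 of them it was the lowest of all 6 libraries. For 8 further sterol genes it fell inside the siPiezo1 range. It was the highest of all 6 for 1 sterol gene, Hsd17b7. Of the 10 fatty acid genes, siNC 2 was the lowest of the siNC libraries for 5, the lowest of all 6 for 2 (Acss2 and Fads1) and the highest of all 6 for 3 (Elovl6, Fads2 and Scd1). The groups did not overlap for 9 of the 22 sterol genes, all lower in siPiezo1, against 5.65% of tested genes. Without siNC 2 they did not overlap for 19 of the 22, all lower, against 16.2% (and 16.7% in the higher direction). Proliferation markers moved with this library too. The 6 genes summed to 598, 705 and 808 CPM in siPiezo1, against 535, 1054 and 542 CPM in siNC 1, 2 and 3. Some macrophage markers had the library pattern of the sterol genes. The median log2 deviation of the 9 from the mean of the 6 libraries was 0.06, -0.02 and -0.06 in siPiezo1, against 0.16, -0.27 and 0.19 in siNC 1, 2 and 3. Without siNC 2, 5 of the 9 were lower in siPiezo1 with no overlap (Adgre1, Cd68, Fcgr1, Mertk and Mrc1) and 2 higher (Lyz2 and Cd14), and Adgre1 and Fcgr1 fell (edgeR adjusted p = 0.0375 and 0.0283). Mrc1, the mannose receptor, stood at 61.4, 99.4 and 60.3 CPM in siPiezo1, against 198, 198 and 196 CPM in siNC. Its log2 fold change was -1.42 with all 6 libraries and without siNC 2 (DESeq2 adjusted p = 1.57e-07, edgeR adjusted p = 0.338, all 6 libraries). For Cd4 too siNC 2 lay with the siPiezo1 libraries, at 4.70, 5.39 and 1.88 CPM in siPiezo1, against 16.5, 1.83 and 13.2 CPM in siNC. The part of the macrophage, T cell, neutrophil, inflammatory and proliferation genes in the sterol difference was not tested. The sterol median was -0.41 without siNC 2, against -0.31 with it.

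**Figure D2:**
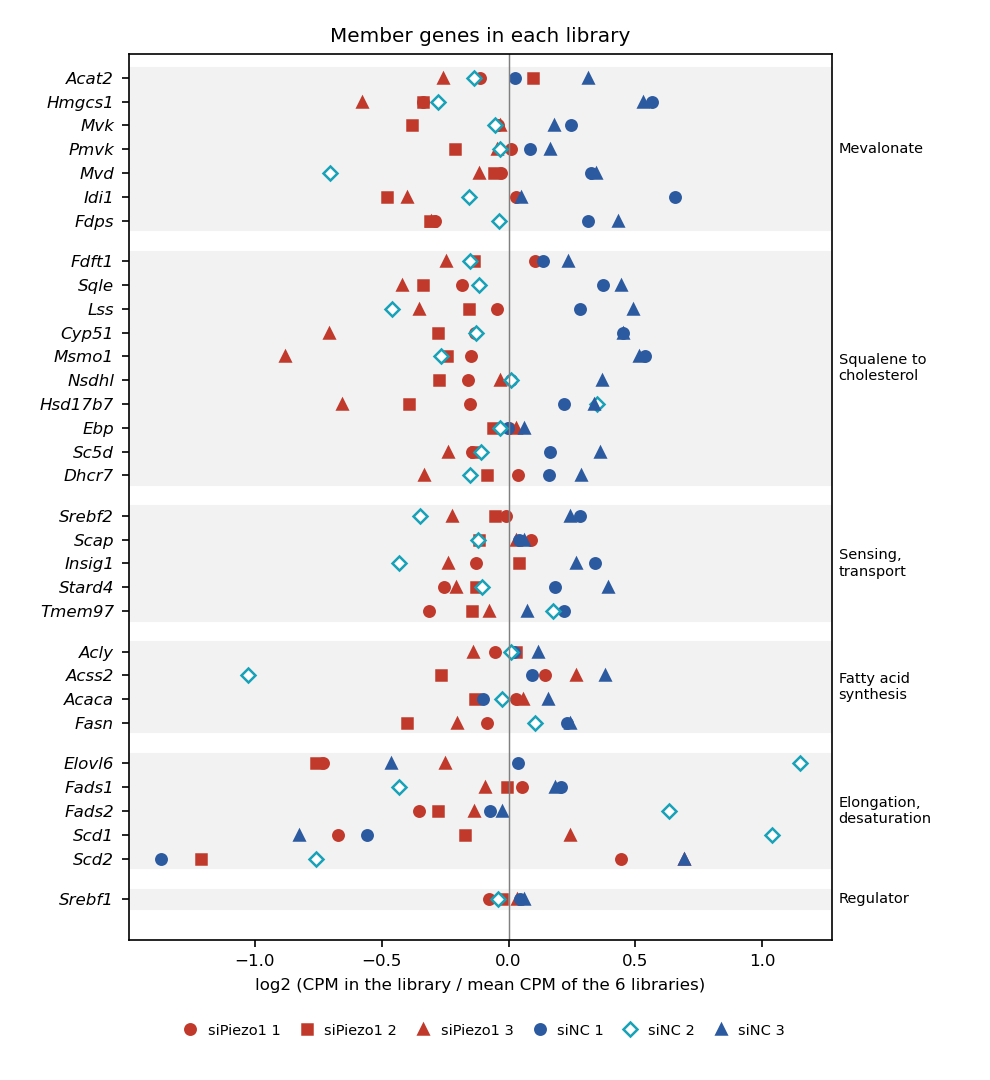
Each row is 1 of the 32 genes, grouped by step of the pathway, and each point is 1 library, placed on the x axis at log2 (CPM divided by the mean of the 6 libraries). Red points (siPiezo1) lie left of filled blue points (siNC 1 and 3) in 19 of the 22 sterol rows, while the open diamond (siNC 2) changes sides between rows and lies far right for Elovl6 and Scd1.

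Promoter sequence was read to describe short motifs before the starts of the members. Members were listed for known ties to SREBPs, so their motif shares are not independent of that choice. RefSeq promoters (build GRCm38.p6, another build than the GRCm39 of the processing notes) were matched by symbol for 25 of the 32 genes, with 31 annotated starts, some of which overlap. Fdps, Fdft1, Sqle, Stard4, Fads1, Scd1 and Scd2 had no entry among the promoters searched. A whole chromosome was left out of that search, and so out of the shares over all promoters and those of tested genes. The 250 bases before each start were searched on both strands. The sterol regulatory element, searched as TCACNCCAC, was found before 1 of the 31 starts, that of Hmgcs1, and in 1.05% of all promoters. The CCAAT box, bound by NF-Y, a known partner of SREBPs, was found before 16 of 22 sterol starts and 4 of 9 fatty acid starts, against 33.8% of all promoters and 35.4% of those of tested genes. The E-box CACGTG was found before 5 of the 22 sterol starts and 0 of the 9 fatty acid starts, against 6.02% of all promoters and 8.14% of those of tested genes. The GC box GGGCGG was found before 18 of the 22 and 5 of the 9, against 32.7% of all promoters and 55.1% of those of tested genes. A match is a description of the letters only.

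The last 150 bases before the start are shown for the gene with the sterol regulatory element, for the sterol and fatty acid genes with the smallest p, and for Ebp, a sterol gene that barely differed, written 5′ to 3′ on the strand of the gene. Capitals mark the sterol regulatory element (Hmgcs1 only) and CCAAT boxes, which read ATTGG where they lie on the other strand. The stretches are chr13:119690201-119690350 (plus strand) for Hmgcs1, chr1:169969206-169969355 (minus) for Hsd17b7, chr11:120824548-120824697 (minus) for Fasn and chrX:8193513-8193662 (minus) for Ebp.
Hmgcs1: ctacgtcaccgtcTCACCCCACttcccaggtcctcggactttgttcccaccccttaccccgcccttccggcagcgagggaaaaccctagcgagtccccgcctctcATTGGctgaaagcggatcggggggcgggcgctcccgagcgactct
Hsd17b7: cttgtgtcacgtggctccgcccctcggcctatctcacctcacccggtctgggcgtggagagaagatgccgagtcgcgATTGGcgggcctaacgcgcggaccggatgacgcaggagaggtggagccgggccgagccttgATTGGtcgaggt
Fasn: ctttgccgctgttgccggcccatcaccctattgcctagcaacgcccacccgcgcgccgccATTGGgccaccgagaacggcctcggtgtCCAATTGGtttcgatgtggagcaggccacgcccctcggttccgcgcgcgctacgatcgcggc
Ebp: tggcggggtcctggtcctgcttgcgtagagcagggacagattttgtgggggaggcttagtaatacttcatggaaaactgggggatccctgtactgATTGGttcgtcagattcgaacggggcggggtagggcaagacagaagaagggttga

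**Figure D3:**
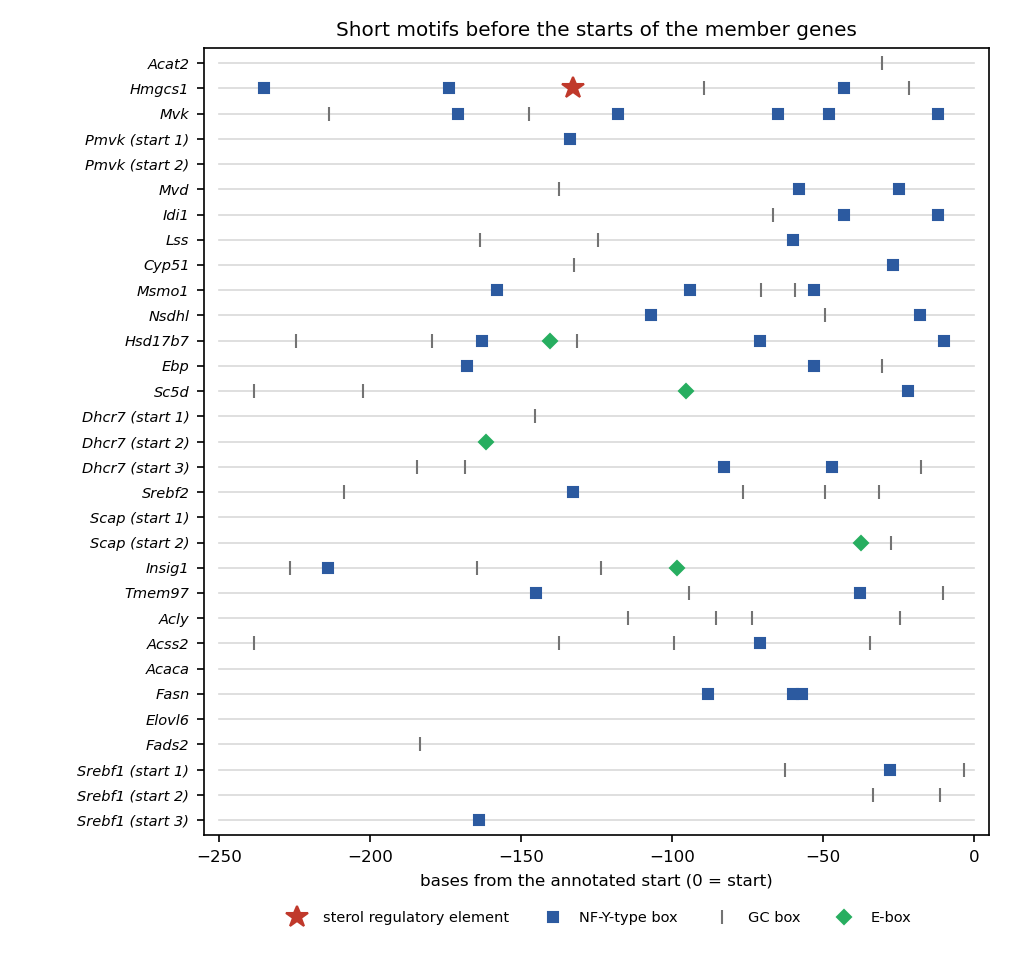
Each row is 1 annotated start of a member, and marks stand at the midpoints of matches to 4 short motifs in the 250 bases before it, with 0 at the start. Blue squares, the NF-Y-type (CCAAT) box, stand in 16 of the 22 sterol rows and 4 of the 9 fatty acid rows, and the only star, the sterol regulatory element, is in the Hmgcs1 row.

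The mevalonate steps turn acetyl-CoA into the isoprenoid farnesyl diphosphate. All 7 genes had a log2 fold change below 0. Hmgcs1 (ENSMUSG00000093930), the synthase that makes HMG-CoA, stood at 66.9, 66.8 and 56.6 CPM in siPiezo1, against 125, 69.6 and 122 CPM in siNC 1, 2 and 3. The groups did not overlap, but siNC 2 lay within 3 CPM of the highest siPiezo1 library. The log2 fold change was -0.74 ± 0.23 (SE) with all 6 libraries and -0.97 ± 0.09 (SE) without siNC 2, which puts the siPiezo1 mean at 59.9% and 51.2% of the siNC mean. Fdps (ENSMUSG00000059743), the synthase of farnesyl diphosphate, stood at 40.6, 40.0 and 40.2 CPM in siPiezo1, against 61.7, 48.3 and 67.0 CPM in siNC. Its siPiezo1 values were the tightest of any member, with an SD of 0.295 CPM. The log2 fold change of Fdps was -0.55 ± 0.13 (SE), and -0.68 ± 0.08 (SE) without siNC 2. Fdps has several near-identical copies. Among them Gm3571 shares 98.9% of 1062 aligned bases with it and had at most 7.16 CPM. Gm43738 is 100% identical over 929 bases, lies over 26.7% of the Fdps exon bases on the same strand and had 0 CPM. The split of reads between Fdps and its copies is therefore uncertain.

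Other mevalonate genes differed less or varied more. Idi1, the isomerase that feeds Fdps, stood at 50.0, 35.1 and 37.1 CPM in siPiezo1, against 77.1, 43.9 and 50.6 CPM in siNC, and the groups overlapped (-0.49 ± 0.24, and -0.65 ± 0.25 without siNC 2, SE). Its copy Gm13502, 100% identical over 684 bases, held at most 2.28 CPM. Mvd, the decarboxylase of mevalonate diphosphate, stood at 40.4, 39.6 and 38.0 CPM in siPiezo1, against 51.6, 25.3 and 52.3 CPM in siNC. In Mvd the library siNC 2 was the lowest of all 6. Its log2 fold change was -0.13 ± 0.27 (SE) with that library and -0.40 ± 0.08 (SE) without it. The kinases Mvk and Pmvk had -0.27 ± 0.17 and -0.15 ± 0.13 (SE), and -0.36 ± 0.17 and -0.20 ± 0.14 without siNC 2. Acat2, the thiolase that opens the route, had -0.17 ± 0.16 (SE), and -0.27 ± 0.15 without siNC 2. Acat2 has 97.7% identity to Acat3 over 1477 bases, and Acat3 held at most 2.31 CPM. It also has 98.7% identity over 445 bases to Tcp1, which held 157 to 199 CPM, so the Acat2 counts are uncertain.

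The next 10 genes turn farnesyl diphosphate into squalene, close it into a ring and trim it to cholesterol, and all 10 had a log2 fold change below 0. Sqle (ENSMUSG00000022351), the squalene epoxidase and a slow step of the route, stood at 47.6, 42.8 and 40.4 CPM in siPiezo1, against 70.0, 49.9 and 73.5 CPM in siNC. Its log2 fold change was -0.57 ± 0.16 (SE), and -0.72 ± 0.09 (SE) without siNC 2. The groups did not overlap, and again siNC 2 stood just above the siPiezo1 libraries. Hsd17b7 (ENSMUSG00000026675), a ketoreductase of the demethylation steps, stood at 16.3, 13.8 and 11.5 CPM in siPiezo1, against 21.1, 23.1 and 22.9 CPM in siNC. Here siNC 2 was the highest library, in contrast to the rest of the branch. The log2 fold change of Hsd17b7 was -0.69 ± 0.15 (SE) with all 6 libraries and -0.67 ± 0.16 without siNC 2, and its unadjusted p of 0.00309 in edgeR's quasi-likelihood test was the smallest of the 32 (adjusted p = 0.81).

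A further 3 steps of this stretch did not overlap between the groups. Cyp51, the lanosterol demethylase, stood at 52.4, 47.3 and 35.1 CPM in siPiezo1, against 78.5, 52.5 and 78.5 CPM in siNC. Sc5d, the sterol C5 desaturase, stood at 38.3, 38.7 and 35.8 CPM in siPiezo1, against 47.3, 39.2 and 54.3 CPM in siNC. Nsdhl, the dehydrogenase that works beside Hsd17b7, stood at 20.9, 19.3 and 22.8 CPM in siPiezo1, against 23.5, 23.5 and 30.2 CPM in siNC. Their gaps between the nearest libraries of the groups were under 1 CPM. On the siNC side siNC 2 was nearest for Cyp51 and Sc5d and level with siNC 1 for Nsdhl. The log2 fold changes were -0.64 ± 0.21 for Cyp51, -0.32 ± 0.13 for Sc5d and -0.30 ± 0.14 for Nsdhl (SE), and -0.81 ± 0.16, -0.44 ± 0.09 and -0.36 ± 0.14 without siNC 2.

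Msmo1, the sterol methyl oxidase, had the widest siPiezo1 spread of the sterol enzymes, at 73.3, 68.7 and 44.1 CPM, against 118, 67.5 and 116 CPM in siNC. The log2 fold change of Msmo1 was -0.69 ± 0.27 (SE), and -0.91 ± 0.24 (SE) without siNC 2. Lss, the cyclase that closes the sterol ring, had -0.34 ± 0.24 (SE), and -0.57 ± 0.11 (SE) without siNC 2. Dhcr7, the last reductase, had -0.23 ± 0.16 (SE), and -0.35 ± 0.13 without siNC 2. Fdft1, the squalene synthase, had -0.17 ± 0.14 (SE), and -0.27 ± 0.12 without siNC 2. Exons of Ctsb lie over 18.3% of the Fdft1 exon bases on the opposite strand and Ctsb held 13621 to 17534 CPM, so the Fdft1 counts are uncertain where counting ignored strand. Ebp, the sterol isomerase, barely differed, at 31.1, 29.8 and 31.7 CPM in siPiezo1, against 31.0, 30.3 and 32.4 CPM in siNC. For Ebp the log2 fold change was -0.01 ± 0.09 (SE), and -0.04 ± 0.09 without siNC 2, and the ranges of the groups lay on top of each other.

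The 5 sensing and transport genes had log2 fold changes between -0.37 and 0.01 with all 6 libraries, and between -0.49 and -0.05 without siNC 2. Srebf2, the sterol branch's transcription factor, stood at 177, 172 and 153 CPM in siPiezo1, against 217, 140 and 211 CPM in siNC. Insig1, both a brake on SREBP and a target of it, stood at 49.8, 55.9 and 46.1 CPM in siPiezo1, against 68.8, 40.3 and 65.4 CPM in siNC. In both genes siNC 2 was below every siPiezo1 library while siNC 1 and 3 were above. The log2 fold changes were -0.18 ± 0.17 and -0.20 ± 0.21 (SE) with all 6 libraries, and -0.36 ± 0.07 and -0.41 ± 0.10 (SE) without siNC 2, for Srebf2 and Insig1 in that order. Scap, the escort of both SREBPs, stood at 51.6, 44.8 and 49.5 CPM in siPiezo1, against 49.9, 44.7 and 50.7 CPM in siNC. The levels of Scap overlapped closely, with a log2 fold change of 0.01 ± 0.10 (SE), and -0.05 ± 0.09 without siNC 2.

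A pair of sterol handling genes did not overlap between the groups. Stard4, which carries cholesterol between membranes, stood at 32.6, 35.6 and 33.7 CPM in siPiezo1, against 44.2, 36.2 and 51.1 CPM in siNC (log2 fold change -0.37 ± 0.14, and -0.49 ± 0.10 without siNC 2, SE). Tmem97, the sigma-2 receptor, which binds the lysosomal cholesterol exporter NPC1, stood at 24.8, 27.9 and 29.2 CPM in siPiezo1, against 35.9, 34.8 and 32.4 CPM in siNC. Tmem97 was one of the few sterol genes for which siNC 2 lay between siNC 1 and 3, and its log2 fold change was -0.33 with that library (SE 0.10) and without it (SE 0.11).

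Fatty acid synthesis starts from cytosolic acetyl-CoA. Fasn (ENSMUSG00000025153), the fatty acid synthase, stood at 83.7, 67.3 and 77.0 CPM in siPiezo1, against 104, 95.5 and 105 CPM in siNC. Every siPiezo1 library was below every siNC library, and siNC 2 kept to its group. The log2 fold change of Fasn was -0.42 ± 0.10 (SE), and -0.46 ± 0.09 (SE) without siNC 2 (unadjusted p = 0.00504 with all 6 libraries, edgeR adjusted p = 0.857). Acaca, the carboxylase just before Fasn, stood at 49.8, 44.5 and 50.8 CPM in siPiezo1, against 45.5, 47.9 and 54.4 CPM in siNC. The groups overlapped for Acaca (-0.03 ± 0.10, and -0.05 ± 0.10 without siNC 2, SE), whose copy Gm5182, 99.2% identical over 6118 bases, held 8.09 to 13.1 CPM. Acly, which makes acetyl-CoA from citrate, stood at 239, 253 and 225 CPM in siPiezo1, against 252, 250 and 269 CPM in siNC. Its log2 fold change was -0.11 ± 0.08 (SE), and -0.13 ± 0.07 without siNC 2. Acss2, which makes acetyl-CoA from acetate, was lowest in siNC 2, at 14.9 CPM, and had 0.14 ± 0.35 (SE) with that library and -0.18 ± 0.17 (SE) without it.

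Among the elongation and desaturation genes, siNC 2 stood far from siNC 1 and 3 for most. Elovl6, the elongase of palmitate, stood at 3.83, 3.76 and 5.35 CPM in siPiezo1, against 6.52, 14.1 and 4.61 CPM in siNC. Its log2 fold change was -0.96 ± 0.43 (SE), and -0.37 ± 0.26 (SE) without siNC 2. Fads2, the delta-6 desaturase, stood at 18.6, 19.6 and 21.6 CPM in siPiezo1, against 22.6, 36.8 and 23.3 CPM in siNC. The groups did not overlap for Fads2, and its log2 fold change was -0.47 ± 0.21 with siNC 2 and -0.21 ± 0.11 without it (SE). Fads1, the delta-5 desaturase, had its lowest value in siNC 2, at 63.8 CPM, and a log2 fold change of -0.03 ± 0.17 (SE). Without siNC 2 it was -0.21 ± 0.07 (SE), with no overlap between the groups, at 89.3, 85.7 and 80.8 CPM in siPiezo1, against 99.3 and 97.8 CPM in siNC 1 and 3.

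The stearoyl-CoA desaturases make oleate and palmitoleate. Scd2 stood at 155, 49.1 and 184 CPM in siPiezo1, against 44.0, 67.2 and 184 CPM in siNC. It had the widest spread of the 32 genes, 4.18-fold between the highest and the lowest library, and the high and low values were found in both groups (0.39 ± 0.65, and 0.18 ± 1.0 without siNC 2, SE). Scd1 stood at 5.00, 7.08 and 9.43 CPM in siPiezo1, against 5.42, 16.4 and 4.50 CPM in siNC. The log2 fold change of Scd1 was -0.29 ± 0.53 with siNC 2 and 0.53 ± 0.28 without it (SE), on opposite sides of 0. A stretch of 623 bases is 95.5% identical between Scd1 and Scd2, so some reads could be shared. Srebf1, the branch's transcription factor, stood at 52.5, 54.4 and 56.7 CPM in siPiezo1, against 57.1, 53.8 and 57.8 CPM in siNC. Its log2 fold change was -0.04 ± 0.08 (SE), and -0.08 ± 0.07 without siNC 2, and the groups overlapped with all 6 libraries.

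**Figure D4:**
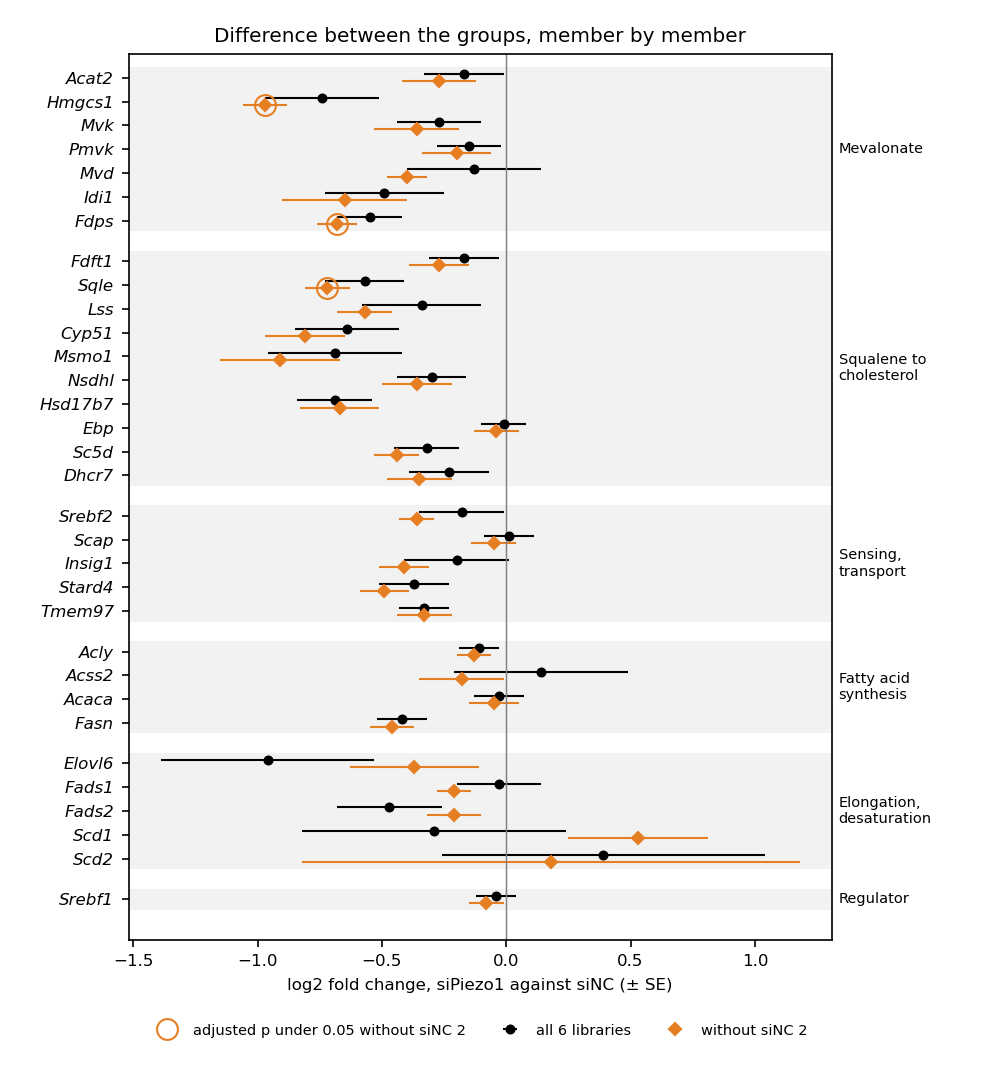
The x axis is the log2 fold change, siPiezo1 against siNC, with its SE, for each of the 32 genes in rows, from all 6 libraries (black circles) and without siNC 2 (orange diamonds). Rings mark Hmgcs1, Fdps and Sqle, the 3 genes with an adjusted p under 0.05 without siNC 2. Diamonds lie left of 0 in all 22 sterol rows, and those of Scd1 and Scd2 lie right of it.

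Without siNC 2, 3 sterol genes fell at an adjusted p under 0.05 (edgeR, Benjamini-Hochberg over all tested genes), where 0.45% of tested genes were called lower and 0.645% higher. These were Hmgcs1 (adjusted p = 0.00357), Fdps (adjusted p = 0.0117) and Sqle (adjusted p = 0.0133), each lower in 3 of 3 siPiezo1 libraries than in both siNC libraries. Over the alternatives the adjusted p of each reached 1 at its highest, and at its lowest 3.01e-17 for Hmgcs1, 7.25e-13 for Fdps and 3.39e-09 for Sqle, by DESeq2 without siNC 2. DESeq2 with all 6 libraries called 1 of the 32 genes, Hsd17b7 (adjusted p = 0.0262), against 0.263% of tested genes called lower. DESeq2 without siNC 2 called 13 of the 22 sterol genes and 1 of the 10 fatty acid genes (Fasn), all lower, against 2.84% of tested genes. Exact two-sided permutation tests of CPM gave p = 0.1 for each of the 11 members whose groups did not overlap, the smallest p that 3 against 3 libraries allow.

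Levels were compared between members as CPM per kilobase of annotated exon. Acly was highest, at 45.3 in siPiezo1 and 48.7 in siNC. Srebf2 had 23.3 and 26.3, and Tmem97 had 19.9 and 25.0, on the same scale and in the same order of groups. At the low end Elovl6 had 0.671 in siPiezo1 and 1.31 in siNC, and Scd1 had 1.47 and 1.80. Of the 2 stearoyl-CoA desaturases Scd2 was therefore the more abundant in these macrophages, at 23.7 in siPiezo1 and 18.0 in siNC.

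Further genes of the pathway, listed apart from the 32, were read from the same test. Ggps1, which makes the geranylgeranyl diphosphate used to anchor small GTPases, stood at 24.9, 18.6 and 22.4 CPM in siPiezo1, against 27.1, 25.2 and 26.3 CPM in siNC (-0.25 ± 0.13, SE). Npc1 and Npc2, the lysosomal cholesterol exporters, had -0.01 ± 0.11 and 0.12 ± 0.14 (SE), and their groups overlapped. Without siNC 2 the values were -0.28 ± 0.13 for Ggps1, -0.11 ± 0.06 for Npc1 and -0.02 ± 0.07 for Npc2 (SE).

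Further genes that process SREBPs or sense sterol, listed apart from the members, did not share the direction of the synthetic enzymes as a set. Of 12 tested, 6 were below 0 and 6 above, with a median of 0.00. The 5 sensing and transport members, among them Srebf2, Insig1 and Scap, lay mostly below 0. With all 6 libraries 4 of the 5 were below 0, with a median of -0.2. Without siNC 2 all 5 were below 0, with a median of -0.36. Erlin2, part of an endoplasmic reticulum complex that restrains SREBP activation, stood at 78.3, 86.9 and 87.5 CPM in siPiezo1, against 72.7, 72.5 and 68.8 CPM in siNC. All siPiezo1 libraries were above all siNC libraries for Erlin2 (0.24 ± 0.08, SE; unadjusted p = 0.0212, edgeR adjusted p = 0.978), while 6.24% of tested genes were apart in that direction. Insig2, the second INSIG gene, stood at 29.7, 32.6 and 36.2 CPM in siPiezo1, against 26.9, 30.0 and 26.7 CPM in siNC (0.24 ± 0.11, SE). Insig1 and Insig2 had log2 fold changes on opposite sides of 0, but with all 6 libraries the groups overlapped for both genes. Mbtps2, the site-2 protease, stood at 49.5, 47.1 and 41.8 CPM in siPiezo1, against 53.4, 54.5 and 52.5 CPM in siNC (-0.21 ± 0.09, SE), with no overlap. Exons of Yy2 lie over 28.4% of the Mbtps2 exon bases on the same strand, so its counts are uncertain. Without siNC 2 Erlin2 had 0.25 ± 0.08, Insig2 0.29 ± 0.11 and Mbtps2 -0.20 ± 0.09 (SE).

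Of 20 further tested genes of fatty acid metabolism, 7 were below 0 and 13 above, with a median of 0.07. Without siNC 2, 21 were tested, with 6 below 0, 15 above and a median of 0.11. Acsl1, the acyl-CoA synthetase that activates long-chain fatty acids, stood at 818, 608 and 744 CPM in siPiezo1, against 561, 367 and 542 CPM in siNC. The groups did not overlap, and the log2 fold change was 0.56 ± 0.19 (SE; unadjusted p = 0.0223, edgeR adjusted p = 0.978). Without siNC 2, its lowest library, Acsl1 had a log2 fold change of 0.39 ± 0.12 (SE). Hacd2, a dehydratase of the elongation cycle, stood at 17.6, 18.4 and 19.7 CPM in siPiezo1, against 20.7, 25.8 and 19.8 CPM in siNC (-0.25 ± 0.14, SE). Without siNC 2, the highest library for Hacd2, the log2 fold change was -0.13 ± 0.11 (SE). Among 11 genes of sterol storage and efflux, 6 were below 0 and 5 above, with siNC 2 and without it. Abcg1, a cholesterol exporter driven by liver X receptors, stood at 127, 112 and 122 CPM in siPiezo1, against 83.4, 64.0 and 78.2 CPM in siNC, with no overlap. Its log2 fold change was 0.68 ± 0.12 (SE; DESeq2 adjusted p = 0.00186, edgeR adjusted p = 0.732). Without siNC 2 it was 0.57 ± 0.07 (SE; edgeR adjusted p = 0.0151), and edgeR then called 1 of the 11 higher (Abcg1) and 1 lower (Apoe). The shares over all tested genes were 0.645% and 0.45%. Apoe stood at 257, 244 and 240 CPM in siPiezo1, against 677, 101 and 712 CPM in siNC 1, 2 and 3. The log2 fold change of Apoe was -1.01 ± 0.63 (SE) with all 6 libraries, where the groups overlapped. Without siNC 2 it was -1.50 ± 0.06 (SE; edgeR adjusted p = 7.22e-05). Lpcat3, another target of liver X receptors, stood at 39.4, 38.7 and 43.9 CPM in siPiezo1, against 44.9, 48.5 and 49.6 CPM in siNC (-0.23 ± 0.09, and -0.22 ± 0.09 without siNC 2, SE).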

How the data were processed

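The authors deposited estimated counts, whole numbers for each Ensembl gene and library, unscaled. The tools, per the submitters' processing notes, were cutadapt 1.9, HISAT2 2.0.4, StringTie 1.3.4d, DESeq2 and edgeR on GRCm39, and the role of each is not given in the sources used here. Strand marking with dUTP is in the labels' protocols, but whether counting used it is not given. The authors' estimated counts are whole numbers, but low values pile up at multiples of 4 (the value 4 occurs 4589 times, 3 occurs 1293 times and 5 occurs 883 times), so 1 unit may not be 1 read, and counts divided by 4 were run as an alternative. The test planned for counts was kept.

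Symbols for 55141 of 55401 identifiers came from a table of gene names, and exon lengths, overlaps and transcript sequences from GENCODE M21 (build GRCm38). Counts were tested in R 4.3.3 with edgeR 4.0.16 (filterByExpr, TMM, robust quasi-likelihood fit, group as the only term) on all 6 libraries, with Benjamini-Hochberg adjustment over all tested genes at 0.05. SE is the fold change over the square root of F, and CPM uses the TMM factors. Near-identical copies were sought with BLAST 2.17.0 (95% identity, 200 bases).

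Every member is named. Per-library values are given for regulators, for members whose groups do not overlap and for the smallest p of each step, and further genes by an unadjusted p under 0.05 or the 2 smallest p of a list. For further sterol synthesis, uptake and trafficking genes this rule was not followed, and some of them, with the counts over that list, are not reported here. Ggps1, Npc1, Npc2, Insig2 and Apoe were named after their values were seen. Members and lists were chosen with earlier results of these data known.

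Alternatives were other scalings, filters, DESeq2 1.42.0, limma 3.58.1 (voom), counts divided by 4, the replicate block and each library left out. DESeq2 without siNC 2 and non-overlap without siNC 2 were added after the data were seen.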

Additional observations from a re-analysis of the deposited data

How the results depend on the processing

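The sterol median stayed between -0.18 and -0.41 and the count below 0 between 19 and 22 of 22 under every alternative run, and the fatty acid median stayed between -0.05 and -0.15, with 6 to 8 of 10 below 0. Calls depended on the test and on siNC 2, and the sterol median was -0.18 without siNC 3. Against 0 in the 6-library edgeR test, sterol calls numbered 1 with DESeq2, 13 with DESeq2 without siNC 2, 0 to 3 with 1 library left out (3 without siNC 2), 9 by groups that do not overlap and 19 by that rule without siNC 2. Fatty acid calls numbered 0 with each library left out, 1 with DESeq2 without siNC 2, 2 by groups that do not overlap and 4 by that rule without siNC 2. With 1 library left out the log2 fold change ranged over both signs for 7 genes: Mvd -0.40 to 0.03, Ebp -0.04 to 0.01, Scap -0.05 to 0.06, Acaca -0.08 to 0.05, Acss2 -0.18 to 0.43, Fads1 -0.21 to 0.08, Scd1 -0.61 to 0.53. Positive values were 0.02 and 0.03 for Mvd without siNC 1 and siNC 3, 0.01 for Ebp and 0.03 and 0.05 for Acaca without siPiezo1 2 or siNC 3, and 0.01 to 0.08 for Fads1. Without siNC 2, Acss2 had -0.18, Scd1 0.53 and Scap -0.05. Scap had -0.0036 on library totals and -0.00026 with at least 50 counts in 3 libraries. With library weights in limma-voom Scap had -0.05, Acss2 -0.12 and Scd1 0.36, and plain voom gave Fads1 0.0046. The cause was not tested. Of 480 member values under alternatives, 20 changed sign and 4 gained a call (Hsd17b7 with DESeq2, and Hmgcs1, Fdps and Sqle without siNC 2). Same-numbered libraries did not deviate together (correlations 0.03, -0.062 and -0.086), and with the replicate block the sterol median was -0.29, the fatty acid median -0.07 and 0 members were called. With 3 libraries a group, SEs ran to 0.65 (Scd2), and a member that missed the threshold is not shown to be equal between the groups.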
